A study of Mus musculus with 3 samples.

Results

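The genes described here copy the genome in S phase. The set held 40 genes, chosen by symbol for their roles in origin licensing, unwinding and synthesis of DNA, nucleotide supply, entry into S phase and packing of new DNA, out of 22907 genes that the array named. Their mRNA levels were compared between the murine colon adenocarcinoma cell line Colon26, which is slowly metastatic, and its sublines LuM1, which is rapidly metastatic, and NM11, which is slowly metastatic. All 3 lines are labelled as female BALB/c and were grown for 3 days in the same serum-containing medium, and the labels name no transgene, knockdown or drug. Single-colour arrays were used, 1 for each line, so that Colon26, LuM1 and NM11 were each represented by 1 RNA sample.

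Before S phase, the origin recognition complex, CDC6 and CDT1 load the MCM2-7 helicase onto DNA, a step called licensing. In S phase the helicase is activated by CDC45 and the GINS complex, the polymerases and the sliding clamp PCNA copy both strands, and CAF-1 places histones on the new DNA. Many of these genes are transcribed from late G1 on by E2F factors, and their mRNA levels are commonly read as a mark of proliferating cells.

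The values are scaled signals, that is, the brightness of a probe after each array was scaled to a common 75th percentile of 585.1. By the scanner software's flag, 39 of the 40 replication genes stood well above background on every array, beside 12242 of the 22907 named genes. The 1 exception was *Ccne2*, cyclin E2, whose signals of 15.1 in Colon26 cells, 16.2 in LuM1 cells and 8.85 in NM11 cells were not well above background, so it has no ratio. The other 39 signals ran from 275 to 30466 in Colon26 cells, from 216 to 25409 in LuM1 cells and from 387 to 30248 in NM11 cells. The scanner's own error was 10.0 to 10.2% of each of these signals, which gives an error of 0.20 to 0.21 for each log2 ratio. As this share hardly varied with the signal, a limit set in scanner errors acts much like a fixed fold. For probes printed repeatedly on an array, the median SD of the log2 signal was smaller, 0.035 to 0.040. With 1 array per line no difference could be checked in replicates or tested, and each is one between these 3 RNA samples. The array reads RNA from many cells, so that fewer cells in S phase and less mRNA per cell cannot be told apart.

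As a check of the labelled cell type, 10 markers of colon epithelium were read. Of these, 4 were well above background in Colon26 cells, 5 in LuM1 cells and 4 in NM11 cells, and *Cdh1*, *Krt18*, *Krt19*, *Cdx1* and *Vil1* were so in none. The summed signal of the 10 markers was 1361 in Colon26 cells, 523 in LuM1 cells and 460 in NM11 cells. That of 8 fibroblast markers was 66337, 55465 and 121227, and that of 7 leukocyte markers was 6561, 13292 and 5801. These sums join markers that differed in opposite directions. *Col1a2* had 59896 in Colon26, 49.6 in LuM1 and 85275 in NM11 cells, whereas *Dcn* and *Thy1* did not stand above background in Colon26 cells and had 27503 and 19560 in LuM1 cells, and *Cd68* had 172, 5251 and 299. Of the 8 fibroblast markers 5, 7 and 7 were well above background in Colon26, LuM1 and NM11 cells, and of the 7 leukocyte markers 5, 4 and 4. Among the latter, *Itgam* had 5027, 6818 and 4251, whereas *Ptprc* and *Adgre1* were not well above background in any line. Nor were 4 of 5 endothelial markers. The part of these markers in the levels of the replication genes was not tested.

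In LuM1 cells the replication genes were lower than in the slowly metastatic lines relative to other genes of the same array, whereas NM11 and Colon26 cells differed little, although against 0 the direction of LuM1 over NM11 turned when the arrays were scaled to *Hprt*. The log2 ratios of LuM1 over Colon26 had a median of -0.51 for the 39 measured genes and -0.13 for all measured genes, and 37 of the 39 were negative. The exceptions were *Mcm3* at 0.07 and *Lig1* at 0.12. The median of LuM1 over NM11 was -0.55, beside -0.11 for all genes, again with 37 negative ratios. Here the exceptions were *Rfc1* at 0.34 and *Rrm2* at 0.04. The median of NM11 over Colon26 was -0.06, beside -0.02 for all genes, with 23 negative and 16 positive ratios. The comparisons share arrays, so they are not independent of each other. LuM1 had the lowest of the 3 signals for 35 of the 39 genes (89.7%), beside 45.7% of all genes measured on the 3 arrays, and the highest for 0, beside 29.2%. Colon26 had the highest signal for 23 and NM11 for 16.

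**Figure D1:**
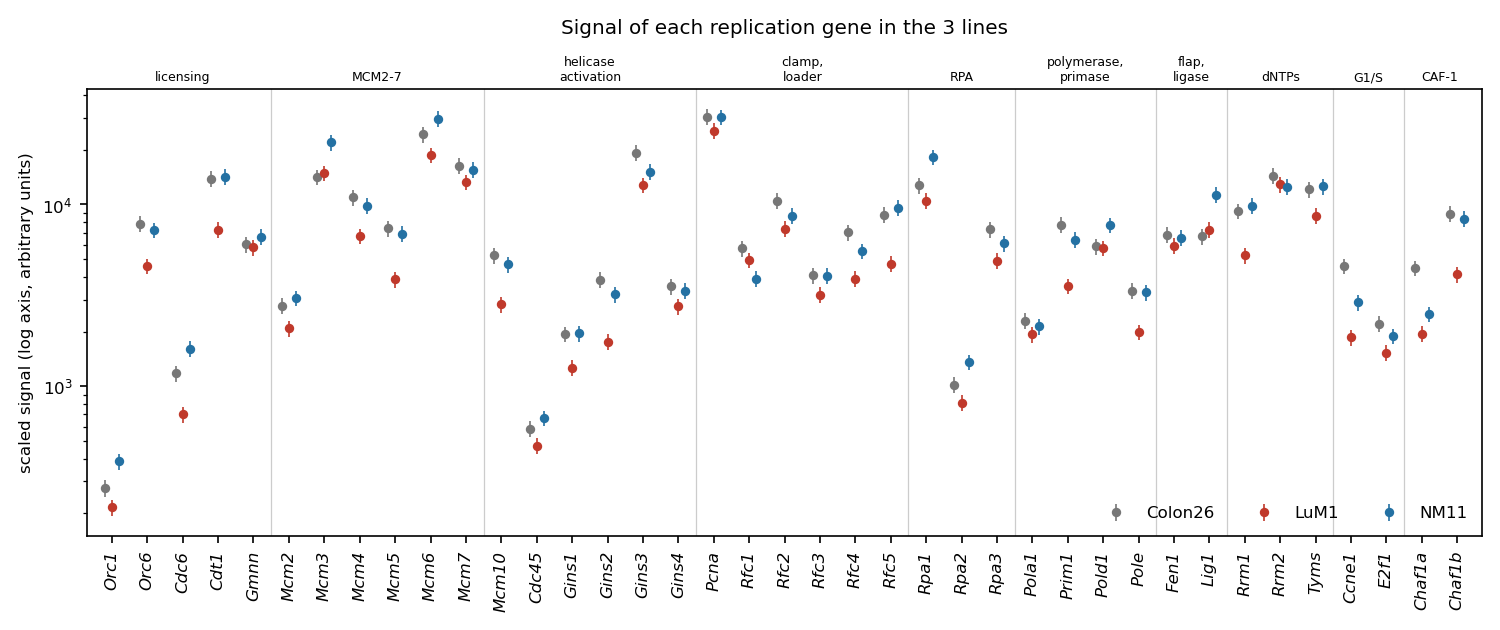
Scaled signal (log axis, arbitrary units) of the 39 replication genes well above background, grouped by role, in Colon26 (grey), LuM1 (red) and NM11 cells (blue), 1 array each. Bars are the scanner's error of 1 spot. The LuM1 point is the lowest for 35 of the 39 genes at this scaling, whereas 21 genes are below Colon26 with the authors' processed values and 18 below NM11 with scaling to *Hprt*.

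Few genes passed 2-fold. For LuM1 over Colon26, 5 of the 39 genes were lower by 2-fold or more, beside 11.7% of all genes, and 0 were higher by as much, beside 12.9%. Such shares past a fold are over all genes well above background on at least 1 of the arrays compared. The 5 were *Gins2*, *Prim1*, *Ccne1*, *Chaf1a* and *Chaf1b*. For LuM1 over NM11, 3 genes (*Cdc6*, *Rfc5* and *Chaf1b*) were lower by 2-fold or more, beside 8.5% of all genes, and 0 were higher, beside 11.1%. For NM11 over Colon26, 0 of the 39 were higher, beside 8.17%, and 0 were lower, beside 7.73%. In both LuM1 comparisons the share of 2-fold lower genes was thus near that of all genes, a wider set that also holds dim genes and bounds. The 5 became 0 with the authors' processed values, 2 after quantile normalization and 1 relative to genes of like brightness, and the 3 became 0 with *Hprt*, Agilent's E1A spike-in controls or the authors' processed values. At a smaller threshold, 17 of the 39 genes were lower in LuM1 than in both other lines by over 2 scanner errors, beside 19.1% of all genes measured on the 3 arrays, and 0 were higher by as much, beside 12.1%. The 17 became 3 with *Hprt*, 8 with the E1A spike-in controls and 6 with the authors' processed values.

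The direction against 0 depended on how the arrays were scaled. A scaling by 1 factor per array moves every ratio between the same arrays by the same step, and does not touch the difference between the set and all genes, which was -0.38 for LuM1 over Colon26, -0.45 for LuM1 over NM11 and -0.04 for NM11 over Colon26. The authors' processed values moved the ratios of LuM1 over Colon26 by 0.45, which left a median of -0.061 and 21 of 39 negative ratios. Scaling to *Hprt*, the internal control of the study's RT-qPCR, moved the ratios of LuM1 over NM11 by 0.59, to a median of 0.036 and 18 of 39 negative ratios. Under these and the other settings tried, 13 in all with the one used here, 13 genes (33.3%) had a negative ratio of LuM1 over both other lines in every setting, beside 13.9% of all genes. They were *Orc6*, *Cdc6*, *Cdt1*, *Mcm5*, *Mcm10*, *Gins1*, *Gins2*, *Rfc5*, *Prim1*, *Pole*, *Rrm1*, *Ccne1* and *Chaf1b*. None of the 39 had positive ratios over both in every setting, beside 24.4% of all genes.

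**Figure D2:**
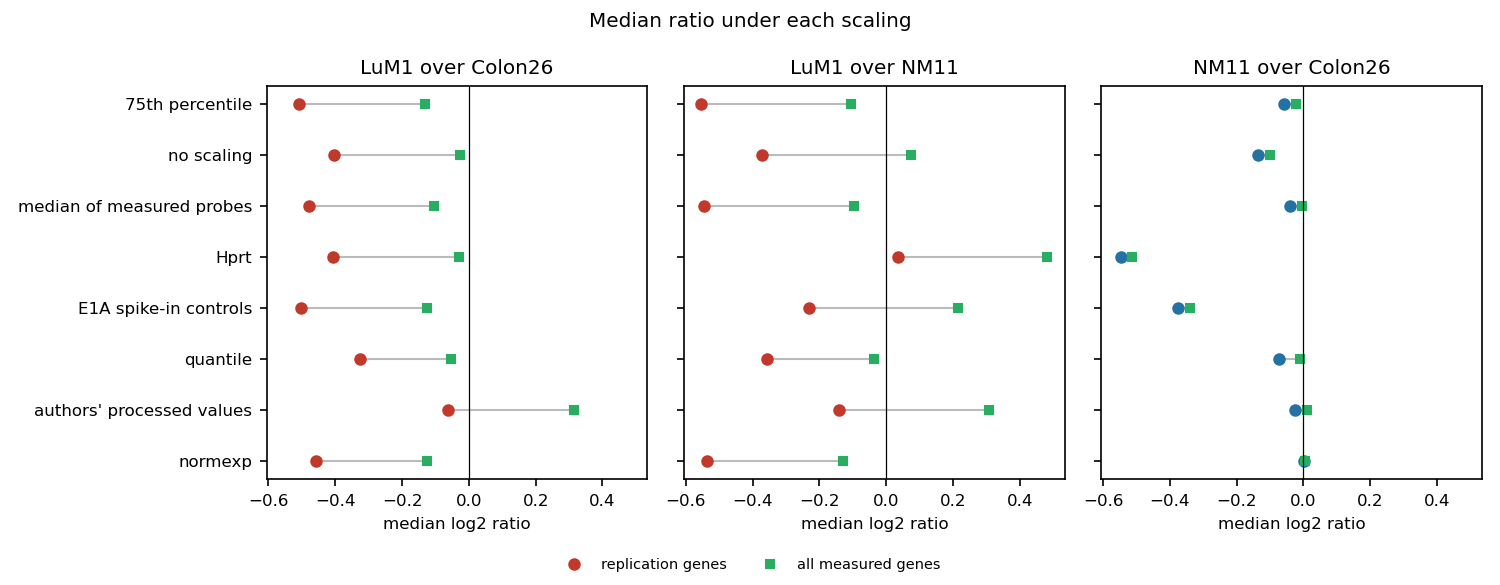
Median log2 ratio of the 39 replication genes (circles) and of all measured genes (green squares) under 8 ways of scaling or background correction, for the 3 comparisons. The circles of both LuM1 comparisons lie left of the squares in each row. Only the quantile and normexp rows could differ in this distance, since the others differ by 1 factor per array. The distance for LuM1 over Colon26 and LuM1 over NM11 was -0.27 and -0.32 with quantile, and -0.33 and -0.41 with normexp. The median of LuM1 over NM11 crosses 0 when the arrays are scaled to *Hprt*.

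Bright probes in general had lower ratios than dim probes on the LuM1 array. The middle range of the replication genes' signals was 2793 to 8855, and all genes of that brightness had a median of -0.28 for LuM1 over Colon26 and -0.23 for LuM1 over NM11. All genes with signals under 256 had medians of 0.04 and 0.09. Relative to the genes of their own brightness, the replication genes had a median of -0.28 for LuM1 over Colon26, with 31 of 39 below, and of -0.30 for LuM1 over NM11, with 30 of 39 below. For NM11 over Colon26 the same median was -0.04, with 22 of 39 below. The part of brightness in the lower levels of LuM1 was not tested further.

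**Figure D3:**
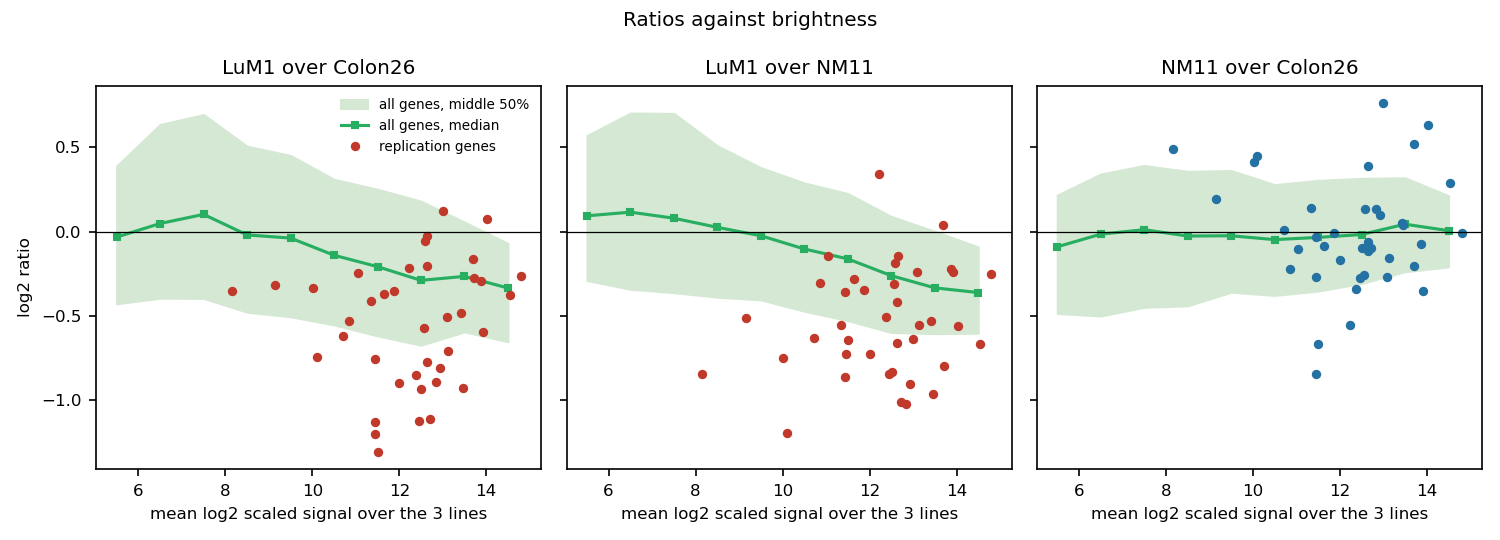
Log2 ratio against the mean log2 scaled signal over the 3 lines. Points are the 39 replication genes, the green line is the median of all measured genes in bins of 1 log2 unit, and the band holds their middle 50%. The green line falls with brightness in both LuM1 comparisons, and 31 and 30 of the 39 points lie below the median of their own bin.

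All 5 licensing genes had lower signals in LuM1 cells than in either other line, with a median of -0.75 against Colon26 and -0.84 against NM11, and 3 of 5 remained negative against Colon26 with the authors' processed values and 4 of 5 against NM11 with *Hprt*. *Cdc6*, the ATPase that brings the helicase to origins, had signals of 1177 ± 118 in Colon26, 702 ± 70.3 in LuM1 and 1603 ± 160 in NM11 cells (probe A_55_P2805736, RefSeq NM_011799). NM11 cells were highest and LuM1 cells lowest, 2.28-fold apart, a log2 ratio of -1.19 that the second probe of the gene gave as -1.32. Scaled to *Hprt* it was -0.60, and that of NM11 over Colon26 was -0.04. *Cdt1*, which loads the helicase together with CDC6, had 13843, 7281 and 14195 in the same order of lines. Its LuM1 signal stood apart from both others, which were alike (log2 ratios of -0.93, -0.96 and 0.04 for LuM1 over Colon26, LuM1 over NM11 and NM11 over Colon26). *Gmnn* encodes geminin, the inhibitor of CDT1, and its signals of 6032, 5810 and 6623 were close together. The log2 ratio of *Cdt1* in LuM1 over Colon26 lay 0.87 below that of *Gmnn* (difference of -0.87, scanner error 0.29), whatever single factor scales the arrays.

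*Orc6*, a subunit of the origin recognition complex, had signals of 7832 in Colon26, 4583 in LuM1 and 7230 in NM11 cells. Its pattern was that of *Cdt1*, with LuM1 lower by log2 ratios of -0.77 and -0.66. *Orc1*, the largest subunit of the same complex, had 275, 216 and 387. It was highest in NM11 cells, and its probes disagreed in size there, with a log2 ratio of NM11 over Colon26 of 0.49 for the brighter probe and 1.16 for the other, and of LuM1 over NM11 of -0.84 and -1.45.

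The 6 subunits of the MCM2-7 helicase did not move as a block. Against NM11 all 6 were lower in LuM1 cells, with log2 ratios from -0.83 to -0.22, of which 2 of 6 remained negative when scaled to *Hprt*. Against Colon26 the ratios ran from -0.93 to 0.07, and 2 of 6 remained negative with the authors' processed values. *Mcm5* had signals of 7385 in Colon26, 3877 in LuM1 and 6895 in NM11 cells. It was the subunit with the lowest ratio in both LuM1 comparisons. *Mcm4* had 10941, 6697 and 9827, also with LuM1 lowest. *Mcm3* had 14141, 14880 and 21930, so that LuM1 and Colon26 were alike and NM11 was higher, by a log2 ratio of 0.63 over Colon26. All 3 probes of *Mcm3* gave this pattern, with log2 ratios of NM11 over Colon26 from 0.63 to 0.71. The proteins of these genes work in a single hexamer, yet the log2 ratio of *Mcm5* in LuM1 over Colon26 lay below that of *Mcm3* by a difference of -1.003 (scanner error 0.29). *Mcm2* had signals of 2773, 2084 and 3056, *Mcm6* had 24300, 18689 and 29656, and *Mcm7* had 16280, 13286 and 15497.

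Promoter sequences are shown for the licensing and MCM genes that hold an E2F-like motif upstream of their start, since both groups are textbook E2F targets. RefSeq promoters (mouse GRCm38.p6, 250 bases before to 50 after the start) were given for 32 of the 40 genes. The letters TTTCGCGC, TTTGGCGC, TTTCCCGC and TTTGCCGC were searched on both strands, and matches that overlap on opposite strands were each counted. Of the 32 genes, 12 (37.5%) held a match, beside 2.61% of all 27025 genes with a promoter in the table and 4.72% of the 9802 of these that were measured on the 3 arrays. Capitals mark the matched letters, and each stretch runs 5′ to 3′ on the strand of the gene with 20 bases on either side or up to the start.
Cdc6 (chr11:98907993-98908040, + strand, 158 to 111 bases before the start): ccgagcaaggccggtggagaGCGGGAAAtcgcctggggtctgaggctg
Mcm5 (chr8:75109336-75109387, + strand, 173 to 122 bases before the start): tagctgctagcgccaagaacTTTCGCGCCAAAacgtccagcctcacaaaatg
Mcm6 (chr1:128359725-128359835, - strand, 130 to 20 bases before the start): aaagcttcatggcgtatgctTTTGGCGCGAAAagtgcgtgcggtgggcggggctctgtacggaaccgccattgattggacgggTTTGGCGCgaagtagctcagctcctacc
Mcm7 (chr5:138172021-138172068, - strand, 185 to 138 bases before the start): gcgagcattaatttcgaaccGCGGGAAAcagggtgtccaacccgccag
Orc1 (chr4:108579407-108579453, + strand, 47 to 1 bases before the start): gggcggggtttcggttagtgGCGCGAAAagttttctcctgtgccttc

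*Mcm5* and *Mcm6* each hold a pair of matches that overlap on opposite strands, and *Mcm6* a further match nearer the start. The other genes with a match were *Cdt1*, *Mcm3*, *Gins3*, *Rfc3*, *Pola1*, *Pold1* and *Lig1*. In 8 of the 12 genes at least 1 match lay before the start, and in the other 4 (*Cdt1*, *Lig1*, *Mcm3* and *Pold1*) all matches lay after it. For LuM1 over Colon26 the median log2 ratio was -0.35 for the 12 genes with a match and -0.55 for the 20 without, and that of LuM1 over NM11 was -0.60 and -0.54. The CCAAT box, searched on both strands, was in a promoter of 21 of the 32 genes (65.6%), beside 41.1% of all genes in the table.

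The genes that activate the helicase were lower in LuM1 cells in all 6 cases against each other line, with medians of -0.61 and -0.57, of which 4 of 6 remained negative against Colon26 with the authors' processed values and 3 of 6 against NM11 with *Hprt*. *Gins2*, a subunit of the 4-part GINS complex, had signals of 3851 ± 385 in Colon26, 1762 ± 176 in LuM1 and 3200 ± 320 in NM11 cells (probe A_55_P2489999, RefSeq NM_178856). Colon26 and NM11 were near each other and LuM1 was 2.19-fold below Colon26, a log2 ratio of -1.13, for which the second probe gave -1.26. With the authors' processed values this ratio was -0.68. The other subunits had smaller ratios of LuM1 over Colon26, -0.62 for *Gins1*, -0.59 for *Gins3* and -0.37 for *Gins4*, whose second probe gave -0.70. *Mcm10*, which helps to activate the loaded helicase, had 5255, 2826 and 4679, with LuM1 lowest by log2 ratios of -0.89 and -0.73. *Cdc45*, the partner of GINS in the active helicase, had 585, 469 and 668, a smaller step of -0.32 against Colon26.

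Among the clamp and its loader, ratios were small for the clamp and uneven for the loader. *Pcna*, the sliding clamp, had signals of 30466 in Colon26, 25409 in LuM1 and 30248 in NM11 cells. The log2 ratios of LuM1 were -0.26 and -0.25, within 2 scanner errors and near those of other bright genes. The loader, replication factor C, has 5 subunits. *Rfc5* had 8752 ± 875, 4726 ± 473 and 9588 ± 959 (probe A_55_P2809320, RefSeq NM_028128), so that LuM1 was 2.03-fold below NM11, a log2 ratio of -1.02, and -0.89 against Colon26. The first was -0.43 with *Hprt* and the second -0.44 with the authors' processed values. *Rfc4* had 7013, 3891 and 5535, with LuM1 again lowest. *Rfc1*, the large subunit, had 5729, 4940 and 3906 and was lowest in NM11 cells instead. The log2 ratio of *Rfc5* in LuM1 over NM11 lay below that of *Rfc1* by a difference of -1.36 (scanner error 0.29). *Rfc2* and *Rfc3* had log2 ratios of LuM1 over Colon26 of -0.51 and -0.35, and all 6 genes of the clamp and loader were negative there, 3 of 6 with the authors' processed values. Against NM11, 5 of 6 were negative, and 1 of 6 with *Hprt*.

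The single-strand binding protein RPA has 3 subunits, which differed between NM11 and Colon26 cells. *Rpa1* had signals of 12732 in Colon26, 10511 in LuM1 and 18239 in NM11 cells. *Rpa2* had 1019, 809 and 1356. Both were highest in NM11, with log2 ratios of NM11 over Colon26 of 0.52 and 0.41, which scaling to Agilent's E1A spike-in control probes or to *Hprt* lowers by 0.32 or 0.49. *Rpa3* had 7293, 4916 and 6110 and was highest in Colon26. The log2 ratio of *Rpa3* in NM11 over Colon26 lay below that of *Rpa1* by a difference of -0.77 (scanner error 0.29).

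The catalytic subunit of primase stood apart from that of the polymerase it works with. The regulatory subunit of primase, *Prim2*, is in the wider list below and went the other way (1.61 for LuM1 over Colon26). *Prim1*, the catalytic subunit that makes RNA primers, had signals of 7740 ± 774 in Colon26, 3558 ± 356 in LuM1 and 6396 ± 640 in NM11 cells (probe A_51_P168632, RefSeq NM_008921). LuM1 was 2.18-fold below Colon26, a log2 ratio of -1.12, and -0.85 against NM11. The first was -0.67 with the authors' processed values and the second -0.26 with *Hprt*. *Pola1*, the catalytic subunit of DNA polymerase alpha that extends these primers, had 2295, 1934 and 2139, which lie within 2 scanner errors of each other. *Pole*, the leading-strand polymerase, had 3355, 1985 and 3284, with LuM1 apart from 2 like values. *Pold1*, the lagging-strand polymerase, had 5874, 5757 and 7697, with NM11 highest. In LuM1 over Colon26 *Prim1* lay below *Pola1* by a difference of -0.87 and *Pole* below *Pold1* by a difference of -0.73 in log2 ratio (scanner error 0.29 each). All 4 genes were negative in both LuM1 comparisons. Of these, 2 of 4 remained so against Colon26 with the authors' processed values and 2 of 4 against NM11 with *Hprt*.

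*Lig1*, the ligase that joins Okazaki fragments, had signals of 6691 in Colon26, 7282 in LuM1 and 11319 in NM11 cells. Its log2 ratio of NM11 over Colon26 was 0.76, and 0.84 by its second probe. It stayed above 0 in every setting, as did *Orc1*, *Mcm3* and *Rpa1*. These 4 genes are 10.3% of the 39, fewer than the 16.5% of all genes that did so. In the same comparison 19 of the 39 (48.7%) stayed below 0 in every setting, beside 45% of all genes. *Fen1*, the nuclease that trims the flaps of the same fragments, had 6824, 5914 and 6549, which lie close together.

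Of the nucleotide supply genes, *Rrm1*, the large subunit of ribonucleotide reductase, had 9196 in Colon26, 5249 in LuM1 and 9833 in NM11 cells. *Rrm2*, the small subunit, had 14426, 12884 and 12525. LuM1 was thus apart from both lines for the large subunit and near NM11 for the small one, and the log2 ratio of *Rrm1* in LuM1 over NM11 lay below that of *Rrm2* by a difference of -0.95 (scanner error 0.29). *Tyms*, thymidylate synthase, had 12129, 8694 and 12560, with log2 ratios for LuM1 of -0.48 and -0.53. All 3 genes were negative against Colon26, and 2 of 3 with the authors' processed values. Against NM11, 2 of 3 were negative, and 1 of 3 with *Hprt*, where *Tyms* turned positive as well as *Rrm2*.

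At the entry into S phase, *Ccne1*, cyclin E1, had signals of 4580 ± 458 in Colon26, 1856 ± 186 in LuM1 and 2892 ± 289 in NM11 cells (probe A_51_P408946, RefSeq NM_007633). The lines were ordered Colon26, NM11, LuM1, and LuM1 was 2.47-fold below Colon26. The step from NM11 to LuM1, a log2 ratio of -0.64, was -0.051 when scaled to *Hprt*, -0.32 with the E1A spike-in control probes and -0.23 with the authors' processed values, each within 2 scanner errors. The log2 ratio against Colon26, -1.30, was the lowest of the set, and 1 of the scalings to a single factor, the authors' processed values, left it at less than 2-fold. *E2f1*, which switches on S-phase genes, had 2204, 1526 and 1887. Its ratios of -0.53 and -0.31 were smaller than those of *Ccne1*.

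Both measured subunits of CAF-1 were low in LuM1 cells and differed in NM11 cells. *Chaf1a*, the large subunit of this histone chaperone, had signals of 4466 ± 447 in Colon26, 1942 ± 194 in LuM1 and 2492 ± 249 in NM11 cells (probe A_51_P196973, RefSeq NM_013733). *Chaf1b*, the middle subunit, had 8891 ± 889, 4124 ± 412 and 8318 ± 832 (probe A_55_P2085181, RefSeq NM_028083). LuM1 was 2.30-fold below Colon26 for *Chaf1a* and 2.16-fold for *Chaf1b*, log2 ratios of -1.20 and -1.11, which were -0.75 and -0.66 with the authors' processed values. NM11 was near LuM1 for *Chaf1a* (log2 ratio of LuM1 over NM11 of -0.36) and near Colon26 for *Chaf1b*, for which LuM1 was 2.02-fold below NM11. Scaled to *Hprt*, the log2 ratios of LuM1 over NM11 were 0.23 for *Chaf1a* and -0.42 for *Chaf1b*. In NM11 over Colon26 the log2 ratio of *Chaf1a* lay below that of *Chaf1b* by a difference of -0.75 (scanner error 0.29).

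**Figure D4:**
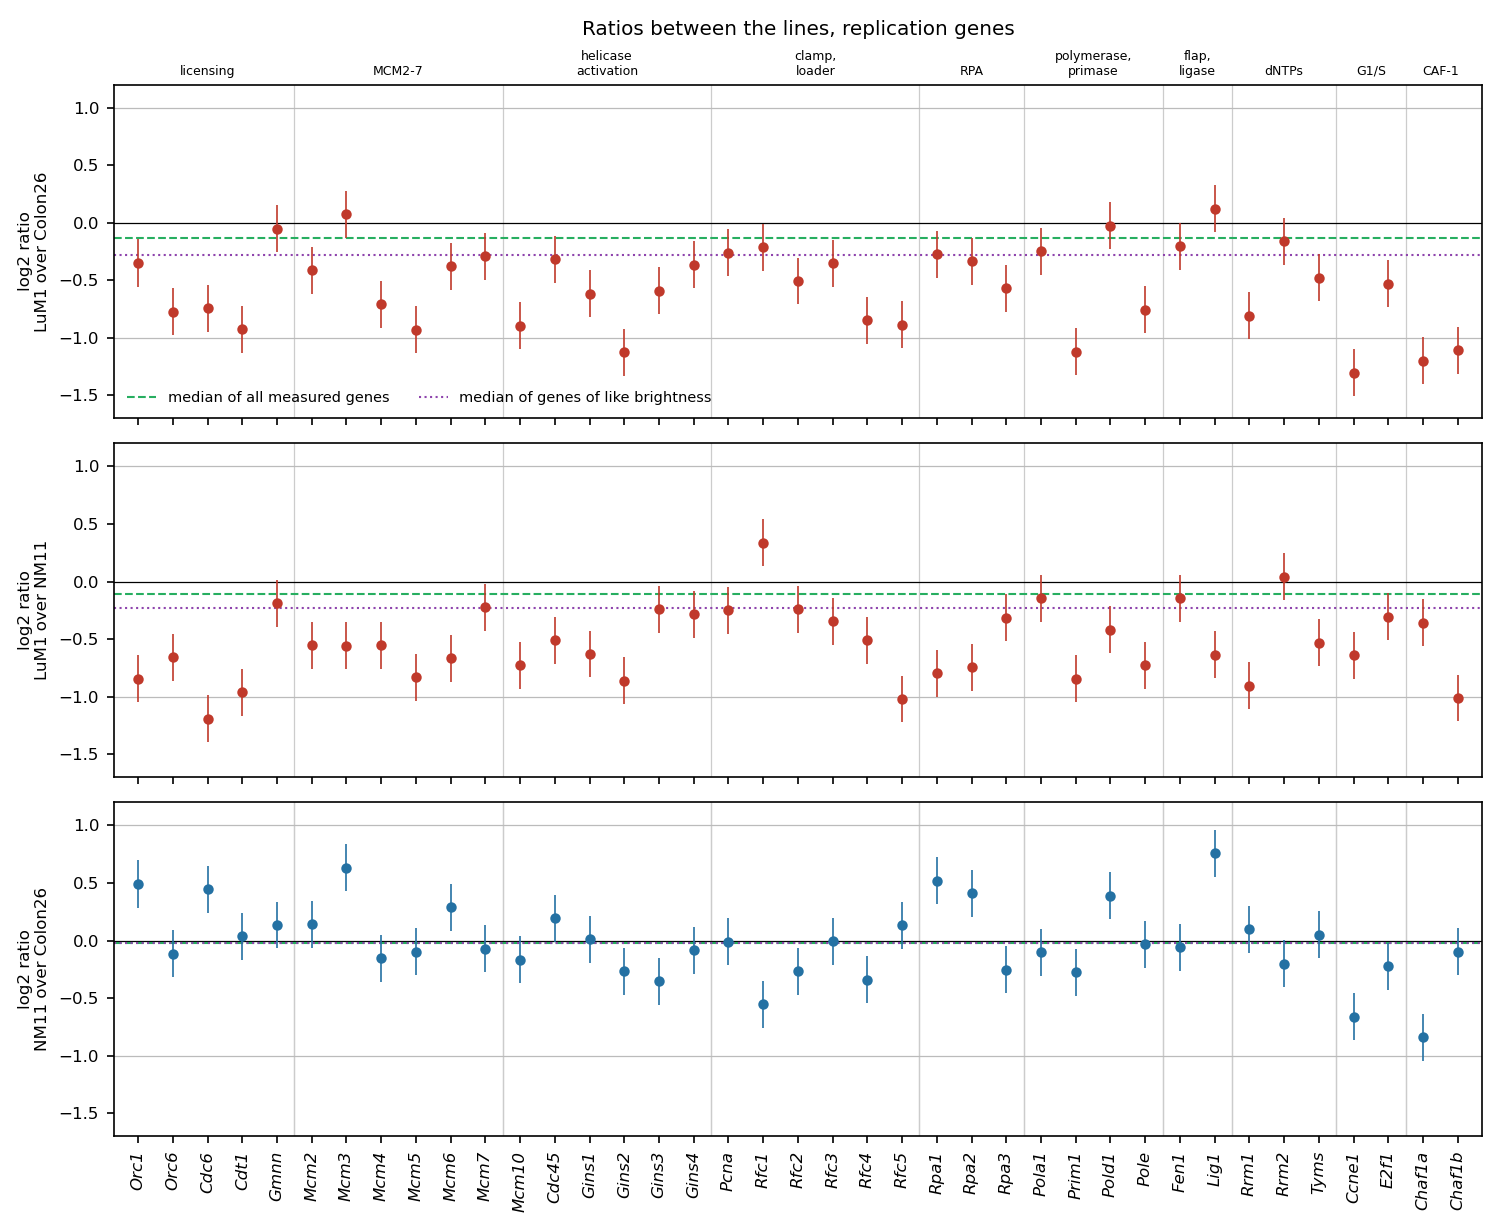
Log2 ratio of each replication gene for LuM1 over Colon26, LuM1 over NM11 and NM11 over Colon26, with scanner error bars. The dashed line is the median of all measured genes, the dotted line that of genes of like brightness, and grey lines mark 2-fold. In both LuM1 panels 37 of 39 points lie below 0 at this scaling, 21 with the authors' processed values for LuM1 over Colon26 and 18 with scaling to *Hprt* for LuM1 over NM11.

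These pairs within a complex or pathway step were picked after their values were seen, and a single factor per array cannot change their differences. In the 15 genes with several probes, 31 in all, the range between the probes of a gene had a median of 0.06 for LuM1 over Colon26, 0.08 for NM11 over Colon26 and 0.10 for LuM1 over NM11 on the log2 scale. The probes had the same sign in 14, 14 and 15 of the 15 genes. The exceptions were *Gmnn* against Colon26 in LuM1 and *Mcm7* against Colon26 in NM11, both with a used probe near 0. The widest ranges were 0.33 for *Gins4* in LuM1 over Colon26, and 0.67 and 0.60 for *Orc1* in NM11 over Colon26 and in LuM1 over NM11, where its probes fell on different sides of 2-fold.

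A wider list of 51 other replication genes, all measured, gave a similar picture. Their median log2 ratio was -0.44 for LuM1 over Colon26, with 40 negative, and -0.51 for LuM1 over NM11, with 39 negative, whereas 25 of 51 were negative with the authors' processed values in the first and 20 of 51 with *Hprt* in the second. The median of NM11 over Colon26 was -0.03. Against Colon26, 8 were lower in LuM1 cells by 2-fold or more, beside 11.7% of all genes, and 1 was higher, beside 12.9%. The lower ones were the origin subunits *Orc2* (-1.17) and *Orc5* (-1.18), the polymerase delta subunit *Pold2* (-1.07), the RNase H2 subunit *Rnaseh2a* (-1.01), the fork protection factor *Tipin* (-1.31), cyclin A2 (*Ccna2*, -1.06), the phosphatase *Cdc25a* (-1.27) and the repressor *E2f7* (-1.05). The authors' processed values raise each ratio of LuM1 over Colon26 by 0.45, which leaves even the lowest of these, -1.31, at less than 2-fold. The higher one was *Prim2*, the regulatory subunit of primase, with signals of 66.4 in Colon26, 202 in LuM1 and 144 in NM11 cells, a log2 ratio of 1.61 where that of its partner *Prim1* was -1.12. *Prim2* was also above 2-fold in NM11 over Colon26 (1.12), and *E2f8*, a repressor related to *E2f7*, was below it (-1.06). Of all genes 8.17% were higher and 7.73% lower there by as much.

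Against NM11, 6 of 51 were lower in LuM1 cells by 2-fold or more, beside 8.5% of all genes, and 0 higher, beside 11.1%. Among them were *Pold2* (-1.20), *Tipin* (-1.04), thymidine kinase 1 (*Tk1*, -1.18), *Ccna2* (-1.30) and *E2f7* (-1.21). Scaling to *Hprt* raises each ratio of LuM1 over NM11 by 0.59, which leaves even the lowest of the 6, -1.30, at less than 2-fold. *Tk1*, which salvages thymidine for DNA synthesis, had signals of 7550 in Colon26, 4909 in LuM1 and 11099 in NM11 cells, with LuM1 lowest and NM11 highest.

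Genes of the next cell cycle phase were read beside them. The 30 genes of G2 and mitosis had a median log2 ratio of -0.52 for LuM1 over Colon26, with 27 negative, and -0.71 for LuM1 over NM11, with 27 negative, which became 19 of 30 with the authors' processed values and 17 of 30 with *Hprt*. Against Colon26, 6 of these genes were lower in LuM1 cells by 2-fold or more, beside 11.7% of all genes. The 6 were cyclin B2 (*Ccnb2*, -1.25), *Aurka* (-1.04), *Kif20a* (-1.36), *Birc5* (-1.13), *Cdc25c* (-1.44) and *Sgo1* (-1.13). Against NM11, 7 were lower by as much, beside 8.5% of all genes. The 7 were *Ccnb2* (-1.10), *Cdk1* (-1.15), *Aurka* (-1.11), *Aurkb* (-1.15), *Cdc20* (-1.09), *Kif23* (-1.06) and *Birc5* (-1.25). In LuM1 cells 0 of the 30 were higher by as much, beside 12.9% of all genes against Colon26 and 11.1% against NM11. Raised by 0.45 with the authors' processed values, the lowest ratio against Colon26, -1.44, is less than 2-fold. So is the lowest ratio against NM11, -1.25, when raised by 0.59 with *Hprt*. The median of NM11 over Colon26 was 0.14. The 3 positive ratios of LuM1 over Colon26 were *Kif11* (0.45), *Mki67* (0.15) and *Nuf2* (0.09). Those of LuM1 over NM11 were *Kif11* (0.22), *Cenpf* (0.03) and *Ndc80* (0.06). *Mki67*, the gene of the proliferation marker Ki-67, had signals of 6877 in Colon26, 7628 in LuM1 and 8213 in NM11 cells. Its log2 ratio of LuM1 over NM11 was -0.11, so that LuM1 lay within 2 scanner errors of both other lines.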

How the data were processed

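Colon26, LuM1 and NM11 cells were measured with 1 single-colour array each, on 1 slide. The authors deposited the intensity of each spot from Agilent Feature Extraction 11.5.1.1, background-subtracted and detrended, with no scaling between arrays, and flags of 0 or 1 per spot. They also deposited a table of processed intensity values, in which every spot of an array was multiplied by the same factor, by a step not given in the sources used here. The paper's methods name no scaling.

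Control spots and 137, 74 and 99 outlier spots (Colon26, LuM1, NM11) were left out, and no probe was saturated. Each array was scaled from its own 75th percentile (581.1, 625.1 and 551.5) to 585.1. Of 56605 probes, 32989 (58.3%) were named through RefSeq accessions (GRCm38.p6), among them 56 probes for the 40 genes, of which 15 had several. Probes were designed on mm9, so coordinates are given only for RefSeq promoters. A gene was read by its probe with the highest mean log2 signal, and ratios were log2 of scaled signals. Probes not well above background entered the counts over all genes only as bounds, against a lowest detected signal of 26.4, 20.1 and 19.6. The scanner's error of a log2 ratio combines both spots and covers technical error only. The number of arrays limits the precision, and no test was run. All 40 genes were to be named, and of the other lists those past 2-fold, except 1 gene that is not reported here. The members and lists were chosen with earlier results of these data known. The gene *Sgol1* of the list was matched as *Sgo1*.

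Alternatives were no scaling, the median of measured probes, *Hprt*, 7 E1A spike-in controls, quantile normalization, the authors' processed values, normexp (offset 50, on median brightness), looser detection, no filter on dim probes, other choices of probe, and a 1.5-fold threshold. Python 3.11.15 (numpy 2.4.6, pandas 2.3.3, matplotlib 3.10.9) and R 4.3.3 with limma 3.58.1 (normexp) were used, and the calling step was checked on simulated data.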

Additional observations from a re-analysis of the deposited data

How the results depend on the processing

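A value was taken as moved when it changed by more than the scanner error of a ratio (0.20 on the log2 scale), or a count by more than 1.5 times. Of 174 recomputed counts and medians, 146 held and 28 moved, but part of the 146 could not move. A single factor per array leaves the set's median minus that of all genes unchanged. A changed detection filter reuses the ratios of the 39 genes. None of the ratios past 2-fold changed sign, but the largest step of a single factor, 0.59, is too small to turn one. Smaller ratios did turn, with 18 of 39 negative for LuM1 over NM11 with *Hprt*, beside 37 at the main scaling. Scaling to *Hprt* gave 3 genes lower in NM11 than in Colon26 cells (*Rfc1*, *Ccne1* and *Chaf1a*) with a median of -0.55, 0 lower in LuM1 than in NM11 cells with a median of 0.036, and 3 lower in LuM1 than in both lines by over 2 scanner errors. The E1A spike-in controls gave 1 lower in NM11 (*Chaf1a*) with a median of -0.38, 0 lower in LuM1 than in NM11 with a median of -0.23, and 8 lower than in both. The authors' processed values gave 0 lower in LuM1 than in Colon26 with a median of -0.061, 0 lower than in NM11 with a median of -0.14, and 6 lower than in both. By construction these settings move all genes of an array alike. Without scaling 1 gene was lower in LuM1 than in NM11, and after quantile normalization 2 were lower than in Colon26 and 1 than in NM11 (for quantile normalization the cause was not tested). Relative to genes of like brightness, an alternative added after seeing the data, as was the count by scanner errors, 1 was lower than in Colon26 (*Ccne1*, median -0.28) and 1 than in NM11 (*Cdc6*, median -0.30). Without a filter on dim probes, which lets in the dim genes, the set's median minus that of all genes was -0.16 for LuM1 over Colon26 and 0.19 for NM11 over Colon26. At 1.5-fold, 17 genes were lower in LuM1 than in Colon26, beside 24.6% of all genes, and 18 than in NM11, beside 20.5%, and in NM11 over Colon26 2 were higher, beside 15.5%, and 2 lower, beside 16.7%. Replicates could not be left out with 1 array per line. No paired analysis was possible because each line has 1 array.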
